A study of Homo sapiens with 30 samples.

Results

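The analysis compared how 2 related cell lines responded to dTAG47 in RNA-seq. For each gene the change in DTMYC cells (dTAG47 against DMSO) was taken, and the change in parental cells was subtracted from it, so the value is a difference of differences. All 12 RNA-seq libraries of the series' 30 samples entered it, in 4 groups of 3. Parental cells are G401, an established line from a malignant rhabdoid tumor of the kidney. DTMYC cells are G401 cells from which CRISPR-Cas9 had removed the endogenous MYC gene, and which carry a lentiviral MYC with the FKBP12-F36V tag and an HA epitope at its N-terminus. Both lines received either DMSO, the solvent, or 500 nM dTAG47 for 24 h, in the same medium, and ribosomal RNA was depleted from their RNA. The labels give a passage range rather than a passage per library, do not say that replicates were separate cultures, and do not say whether DTMYC is 1 clone. The p-values therefore measure the spread between these libraries. The lines differ in their MYC supply already in DMSO, which cannot be told apart here from the effect of degradation.

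dTAG47 is a bifunctional molecule that joins a protein carrying the FKBP12-F36V tag to the cereblon ubiquitin ligase, after which the proteasome destroys that protein. Parental cells have no tagged protein, so their libraries show what dTAG47 does without it. MYC is a transcription factor that binds DNA together with its partner MAX, preferentially at the E-box CACGTG, and is known for raising the expression of genes that build ribosomes, import and fold mitochondrial proteins and supply nucleotides, amino acids and sugar carbon. In rhabdoid tumors the SWI/SNF subunit gene SMARCB1 is lost, and MYC target genes are typically active.

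Totals ranged from 27854207 to 54633745 counts per library. MYC mRNA was read first, although it cannot check the degradation of a protein. Parental libraries held 215, 267 and 223 CPM in DMSO (counts scaled to a common library total) and 242, 226 and 237 in dTAG47. DTMYC libraries held 1329, 1353 and 1418 CPM in DMSO and 1478, 1404 and 1349 in dTAG47. Every DTMYC library was above every parental library, and within each line the DMSO and dTAG47 libraries overlapped. FKBP1A, the gene for the unmodified FKBP12, read 231, 220.4 and 187 CPM in parental DMSO libraries and 531, 537 and 536 in DTMYC DMSO libraries. Whether reads of the tag were counted there was not tested. Library 3 of parental DMSO stood apart. Its mean correlation with its own group was 0.9825, against 0.9882 to 0.9958 for the other libraries, and the residual SD over genes was 0.355 on the log2 scale, against 0.149 to 0.244. Its deviation from libraries 1 and 2 followed the GC content of genes (r = -0.71 across 12861 genes, which are not independent). Because it enters every parental response and every difference, results are given with all 12 libraries and again without it. Leaving it out turned rather than removed the trend of the parental response with GC content (r = 0.257 with it and -0.243 without it), while that of the difference went from -0.232 to 0.0819.

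The dTAG47 response differed between the lines for 159 of 13401 genes tested (1.19%), of which 80 (0.597%) had the higher response in DTMYC cells and 79 (0.59%) the lower. These calls are edgeR quasi-likelihood tests with an adjusted p under 0.05 over all genes. The size of the difference had a median of 0.731 on the log2 scale and ran from 0.408 to 2.25, and 28 of the 159 reached 2-fold. Of the 159 genes, 145 averaged at least 5 CPM, and in all 145 the DMSO and dTAG47 libraries did not overlap in the line that changed more, as in 50.9% of the 9957 genes tested at that level, so nothing is read from it. An unadjusted p under 0.05 was reached by 2574 genes. Without parental DMSO library 3, the count was 2417 of 13521 genes (17.9%), 1122 (8.3%) with the higher and 1295 (9.58%) with the lower response in DTMYC cells. All 159 were among them with the same sign. The median SE of the difference over all genes was 0.187 with that library and 0.121 without it. Without parental DMSO library 2 the count was 549. Without any 1 of the 9 libraries outside the parental DMSO group it fell to between 5 and 28 genes, whereas the direction of all 159 stayed the same. So the length of the list depends on which libraries are in the fit. The signs of its members did not change when any 1 library was left out. These genes were chosen for a small p in the same libraries, so nothing is read from the kept signs. With relative log expression scaling in place of TMM, 38 genes were higher and 25 lower (60.3% higher, against 50.3%).

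**Figure D1:**
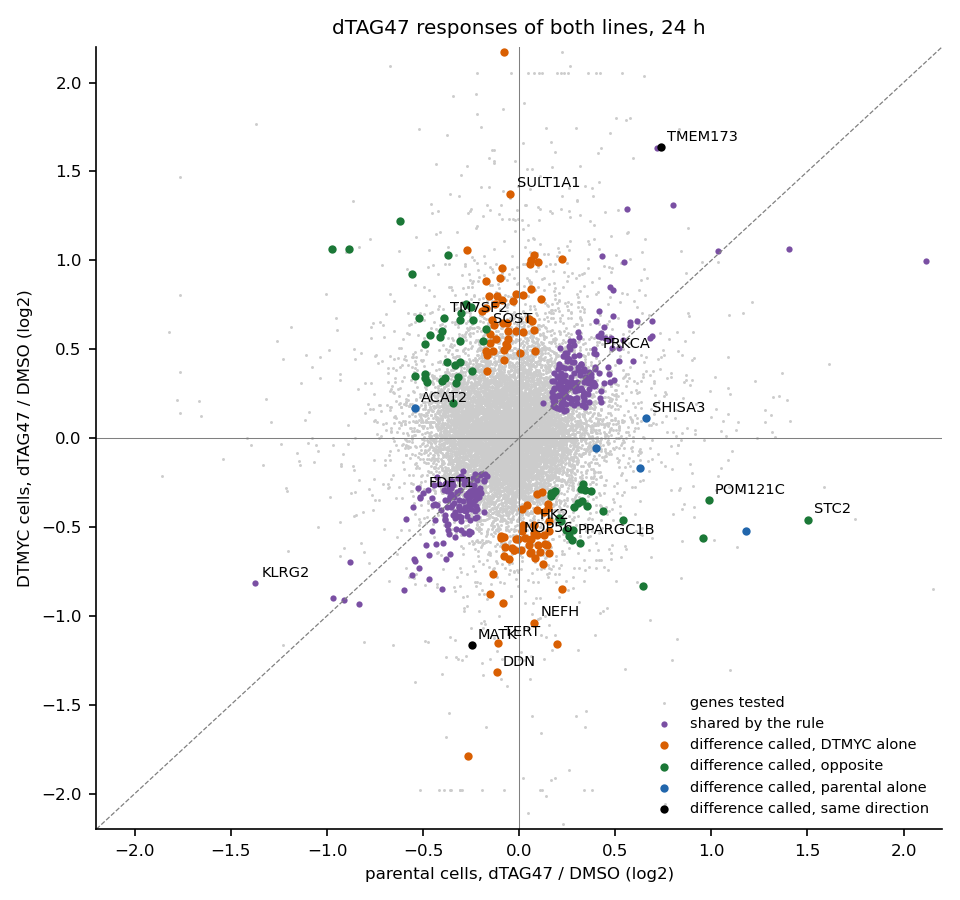
Each point is a gene, with its dTAG47 response in parental cells on the horizontal axis and in DTMYC cells on the vertical axis (log2, all 12 libraries); the dashed line marks equal responses, and 34 genes lie beyond the axes, which end at 2.2. The 95 genes called for DTMYC cells alone lie near 0 on the horizontal axis, the 57 opposite genes lie in the upper left and lower right, and the 333 shared genes lie along the diagonal.

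The 159 genes were sorted by what each line did. In 95 (59.7%) the DTMYC response passed its own test and the parental response did not reach an unadjusted p of 0.05, and 46 of these rose and 49 fell. In 57 (35.8%) both lines had an unadjusted p under 0.05 with opposite signs, 32 higher and 25 lower in DTMYC cells. Both lines had responses of the same sign and different size in 2 genes, MATK and TMEM173. In 5 genes the parental response alone reached that level. The classes share libraries with the difference itself and describe it. Of the 95, 57, 2 and 5 genes, 73, 49, 2 and 4 were of the same class without parental DMSO library 3. With parental DMSO library 3 left out, they held 997, 572, 111 and 693 genes, and 44 met none of these descriptions.

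Many MYC target genes and ribosome assembly genes fell in DTMYC cells. With all 12 libraries no member of these lists passed the test in parental cells, and without parental DMSO library 3 some did. Of 57 canonical MYC targets tested, 8 had the lower response in DTMYC cells and none the higher, and the median difference was -0.34, against 0.08 over all genes. The median response of this list was -0.42 in DTMYC cells, where 38 members fell and 1 rose, and -0.07 in parental cells, where none passed the test. In the fit that left out parental DMSO library 3, 35 differences were lower and 1 higher, and in parental cells 13 of the 57 fell and 1 rose. Of 88 ribosome biogenesis genes, 5 had the lower response, with a median difference of -0.29. In DTMYC cells 41 of the 88 fell, and in parental cells none passed. Without parental DMSO library 3, 59 of the 88 differences were lower and none was higher, and in parental cells 15 fell and 7 rose. For comparison, 8.71% of all genes tested passed in DTMYC cells (572 rose, 4.27%, and 595 fell, 4.44%) and 0.127% in parental cells (14 rose, 0.104%, and 3 fell, 0.0224%). Without any 1 DTMYC library the DTMYC calls numbered 329 to 636, against 1167 with all. The 17 parental calls became 0 without any 1 parental dTAG47 library, 3 or 4 without any 1 DTMYC library or parental DMSO library 1, and 353 without parental DMSO library 2. In the fit without parental DMSO library 3, 29.2% of genes passed in DTMYC cells (12.7% rose and 16.6% fell) and 20.1% in parental cells (9.17% rose and 10.9% fell). In bulk libraries such as these, fewer cells of a kind and less RNA per cell cannot be told apart.

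Several of the genes that fell in DTMYC cells carry a MYC region at their start site. MYC regions came from ChIP-seq of DTMYC cells in DMSO, labelled with MYC as the antibody although the deposited lists are named for HA, the epitope on the tagged MYC, read as peaks present in both DMSO libraries. The E-box nearest the region's midpoint is printed below for 5 genes of the MYC target, ribosome and mitochondrial lists, 1 amino acid transporter, 1 transcriptional coactivator, 1 MAX partner and, for contrast, 1 gene that rose in parental cells. They are hg19 sequences of the plus strand from 5′ to 3′, with CACGTG in capitals.
HK2, chr2:75062136-75062165: ttccggcgagagCACGTGgagagaatcgtg
MYBBP1A, chr17:4458322-4458351: caggttcgcgacCACGTGcccccagtctca
NOP56, chr20:2633485-2633514: caggtgctgttgCACGTGctgtttgagcac
RRP1B, chr21:45079756-45079785: gaatgcggcttcCACGTGttgtcgtgacac
GRPEL1, chr4:7069401-7069430: ggaccacacgcgCACGTGggccaccgtacc
SLC7A5, chr16:87903226-87903255: cccagctcggagCACGTGcgtcgtccggcc
PPARGC1B, chr5:149110364-149110393: ctgccgtactttCACGTGgacttgtggccc
MNT, chr17:2304530-2304559: ccggcgcgcgcaCACGTGgcccgggcaggg
SHISA3, chr4:42399594-42399623: ctggggtactcgCACGTGgggaacaaattc
A match to these letters describes the sequence and does not show that MYC sits on it.

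HK2, which encodes the hexokinase that starts glycolysis, lies on chromosome 2 (75061108 to 75120486 in hg19). In DTMYC cells it read 184, 171 and 185 CPM in DMSO and 129, 129.9 and 125 CPM in dTAG47. In parental cells it read 79.7, 78.95 and 84.3 CPM in DMSO and 79.5, 88.6 and 88.05 CPM in dTAG47. The DTMYC groups were fully apart, and the parental groups overlapped. The difference of responses was -0.57 ± 0.10 (SE, adjusted p = 0.0315) in edgeR, and -0.62 without parental DMSO library 3. MYBBP1A, a nucleolar MYB-binding protein, read 450.4, 414 and 464 CPM in DMSO and 288, 276 and 268 CPM in dTAG47 in DTMYC cells. The corresponding parental libraries held 248, 265 and 192 CPM in DMSO and 246, 255 and 246 CPM in dTAG47, and there library 3 of DMSO was the lowest of the 6. The difference was -0.76 ± 0.14 (SE, adjusted p = 0.0351) in edgeR, and -0.66 without that library.

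NOP56, a core protein of the box C/D particles that guide methylation of ribosomal RNA, fell from 338, 299.8 and 347 CPM to 218, 227 and 219.8 CPM in DTMYC cells. In parental cells NOP56 read 252, 262 and 228 CPM in DMSO and 243, 257 and 238 CPM in dTAG47, with overlapping groups. Its difference was -0.56 ± 0.11 (SE, adjusted p = 0.0379) in edgeR, and it was -0.53 without parental DMSO library 3. RRP1B, another nucleolar protein of ribosome assembly, read 379, 395 and 393 CPM in DMSO and 267, 272 and 262 CPM in dTAG47 in DTMYC cells. Its parental response was 0.13 and its difference was -0.67 ± 0.09 (SE, adjusted p = 0.00848) in edgeR. NOL6, a factor of the small ribosomal subunit, had a difference of -0.63, IMP4 -0.59 and TSR1 -0.55, and these 3 with NOP56 and RRP1B are the 5 members called. TCOF1, the nucleolar protein treacle, had a difference of -0.62 ± 0.12 (SE, adjusted p = 0.0351) in edgeR. PA2G4 (-0.51), SORD (-0.47), IMP4, NOP56, HK2, MYBBP1A, TCOF1 and SLC19A1 make up the 8 MYC targets called.

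Few members of the metabolic and chaperone lists were called, where 1.19% of all genes were called and 0.59% were lower. Single calls are therefore not read as a result about a list. GRPEL1, which recharges the mitochondrial HSP70 chaperone, read 120.4, 117 and 122 CPM in DMSO and 79.5, 81.98 and 83.5 CPM in dTAG47 in DTMYC cells. Its parental libraries held 77.9, 76.3 and 77.7 CPM in DMSO and 71.6, 72.2 and 73.6 CPM in dTAG47, and its difference was -0.46 ± 0.09 (SE, adjusted p = 0.0351) in edgeR. It was the 1 member of 32 mitochondrial import and chaperone genes that was called, with a list median of -0.14 for the difference, and 9 were lower without parental DMSO library 3. FKBP4, a cochaperone of HSP90, had a difference of -0.64 ± 0.10 (SE, adjusted p = 0.0186) in edgeR and was the 1 member called of 36 cytosolic chaperones. Of 24 serine and one-carbon genes 2 were lower, the folate carrier SLC19A1 (-0.63) and the glycine decarboxylase GLDC (-0.47), and the amino acid transporter SLC1A4 was higher (0.68). SLC7A5, the large neutral amino acid transporter, read 652, 622 and 654 CPM in DMSO and 459, 439.9 and 407 CPM in dTAG47 in DTMYC cells and 374, 416 and 322 CPM in DMSO and 377, 375 and 383 CPM in dTAG47 in parental cells. Its difference was -0.59 ± 0.12 (SE, adjusted p = 0.0417) in edgeR.

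Among the 12 lowest differences were genes outside these lists. TERT, the catalytic subunit of telomerase, read 19.3, 15.7 and 17.2 CPM in DMSO and 7.59, 7.44 and 8.44 CPM in dTAG47 in DTMYC cells and 4.03, 3.58 and 2.57 CPM in DMSO and 3.42, 3.25 and 2.70 CPM in dTAG47 in parental cells. The DTMYC groups were apart, while all 6 parental libraries lay below every DTMYC library. Its difference was -1.04 ± 0.22 (SE, adjusted p = 0.0427) in edgeR, and -0.92 without parental DMSO library 3. NEFH, the heavy neurofilament chain, read 111, 115 and 115 CPM in DMSO and 58.8, 56.1 and 51.4 CPM in dTAG47 in DTMYC cells and 198, 209.8 and 162 CPM in DMSO and 199.7, 198 and 204 CPM in dTAG47 in parental cells. The difference was -1.12 ± 0.13 (SE, adjusted p = 0.00523) in edgeR, and -1.04 without parental DMSO library 3, the lowest library of the parental group. DDN, which encodes dendrin, had a difference of -1.20 ± 0.13 (SE, adjusted p = 0.00523) in edgeR, from 17.7, 16.8 and 18.4 CPM to 7.07, 7.20 and 6.95 CPM in DTMYC cells. AKAP1, which anchors protein kinase A at mitochondria, had -0.80, and ANKRD13B had -0.83. The fatty acid binding protein gene FABP5 had -0.84, with reads that near-identical copies could share.

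Of the 80 genes with the higher response in DTMYC cells, no list held more than 2. SULT1A1, TJP3, CYS1 and ECEL1 were named by rank and not through a list. SULT1A1, a phenol sulfotransferase, rose from 1.36, 1.40 and 1.35 CPM to 3.21, 4.13 and 3.30 CPM in DTMYC cells, and parental libraries held 25.6, 24.4 and 22.9 CPM in DMSO and 24.5, 24.4 and 21.9 CPM in dTAG47. The difference was 1.42 ± 0.16 (SE, adjusted p = 0.00523) in edgeR, and SULT1A1 has near-identical paralogs, so its value is uncertain. TJP3, a tight junction scaffold, read 1.73, 1.91 and 1.06 CPM in DMSO and 3.45, 3.33 and 2.94 CPM in dTAG47 in DTMYC cells, and its difference was 1.33 ± 0.24 (SE, adjusted p = 0.0351) in edgeR. Both genes were far lower in DTMYC than in parental cells in DMSO, and after dTAG47 they were still below every parental library. The same order held for CYS1, which encodes a ciliary protein (1.05), and for ECEL1, an endopeptidase-like gene (1.06). CD82, a tetraspanin of the cell surface, had 1.00 and was the 1 member called of 39 extracellular matrix and adhesion genes, a list with a median difference of 0.24. In DTMYC cells 7 of the 39 rose, against 4.27% of all genes, among them the fibrillin gene FBN1 (0.64) and the collagen gene COL5A2 (0.54), and in parental cells none passed. With parental DMSO library 3 left out, 9 of the 39 differences were higher and 1 lower, and in parental cells 8 rose and 1 fell. Over all genes of that fit 8.3% of differences were higher and 9.17% rose in parental cells. CDKN2C, an inhibitor of the kinases CDK4 and CDK6, read 25.7, 25.9 and 24.8 CPM in DMSO and 33.2, 36.02 and 36.2 CPM in dTAG47 in DTMYC cells and 146, 130.4 and 119 CPM in DMSO and 119.8, 117 and 116 CPM in dTAG47 in parental cells. Its difference was 0.63 ± 0.12 (SE, adjusted p = 0.0351) in edgeR, while CDKN1A, the p21 inhibitor gene, had 0.16 (adjusted p = 0.502 in edgeR).

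**Figure D2:**
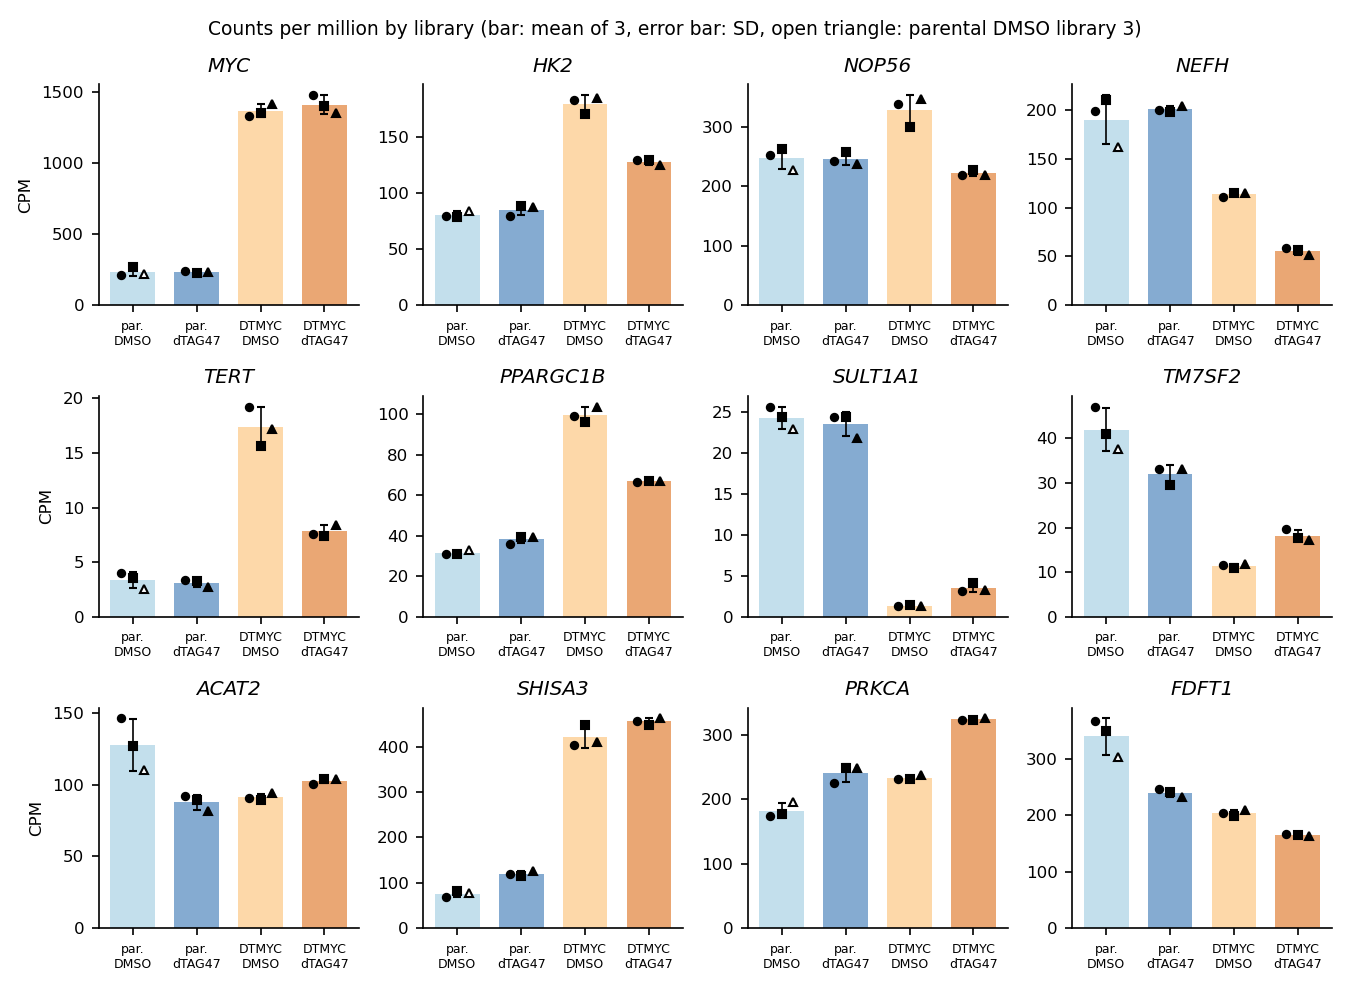
Level in CPM of 12 genes in each of the 12 libraries (circle, square and triangle: replicates 1, 2 and 3; bar: mean of 3; error bar: SD; axes start at 0). HK2, NOP56, NEFH and TERT are of the class with a DTMYC response alone, PPARGC1B and TM7SF2 of that with opposite signs and ACAT2 and SHISA3 of the parental class, and PRKCA and FDFT1 changed the same way in both lines.

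In 57 genes the responses of the lines had opposite signs. PPARGC1B, the mitochondrial coactivator PGC-1 beta, read 98.8, 95.9 and 104 CPM in DMSO and 66.3, 66.9 and 67.05 CPM in dTAG47 in DTMYC cells. In parental cells it read 30.98, 31.1 and 32.7 CPM in DMSO and 36.1, 39.3 and 39.3 CPM in dTAG47. Neither pair of groups overlapped, and the responses were -0.58 and 0.27. Its difference was -0.85 ± 0.10 (SE, adjusted p = 0.00523) in edgeR, and -0.90 without parental DMSO library 3. MNT, which binds MAX and represses E-box genes, read 37, 37.9 and 37.7 CPM in DMSO and 31.9, 31.6 and 28.7 CPM in dTAG47 in DTMYC cells and 37.9, 41.4 and 33.8 CPM in DMSO and 47.2, 45.7 and 48.5 CPM in dTAG47 in parental cells. It was the 1 member called of 19 genes of the MYC network, with a difference of -0.61 ± 0.12 (SE, adjusted p = 0.0396) in edgeR. MAX had a difference of -0.43 ± 0.10 (SE, adjusted p = 0.0591) in edgeR, which missed the threshold. The AP-1 gene FOSL1 (responses of -0.41 in DTMYC cells and 0.44 in parental cells), the nuclear receptor gene NR4A1 (-0.51 and 0.24) and the clock repressor gene NR1D1 (-0.59 and 0.32) differed in the same sense, as did GREB1 (-0.55 and 0.26). In the fit that left out parental DMSO library 3, the parental responses were 0.30 for FOSL1, 0.11 for NR4A1, 0.25 for NR1D1 and 0.14 for GREB1, and the last 3 no longer reached an unadjusted p of 0.05. FOSL1 and NR4A1 were the 2 members called of 33 immediate early and MAPK feedback genes, whose median response was -0.02 in DTMYC cells and 0.18 in parental cells. Of that list DUSP6, a phosphatase that acts on ERK, rose in parental cells (0.51, adjusted p = 0.0338 in edgeR).

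POM121C, a nuclear pore gene with near-identical copies, rose in the parental line, where it read 14.1, 13.4 and 12.6 CPM in DMSO and 26.4, 25.8 and 27.4 CPM in dTAG47. In DTMYC cells it read 19.2, 17.3 and 20.4 CPM in DMSO and 11.9, 16.5 and 16.2 CPM in dTAG47, with a response of -0.35 that did not pass the test, and the difference was -1.33 ± 0.17 (SE, adjusted p = 0.00828) in edgeR, with -1.32 without parental DMSO library 3. In the other sense, SOST, the secreted WNT inhibitor sclerostin, read 151, 169 and 157 CPM in DMSO and 255, 244 and 231 CPM in dTAG47 in DTMYC cells and 35.6, 34.3 and 36.3 CPM in DMSO and 30.9, 30.7 and 32.7 CPM in dTAG47 in parental cells. Its difference was 0.79 ± 0.10 (SE, adjusted p = 0.00828) in edgeR. PLEKHA2 (1.03), the sorting nexin gene SNX10 (1.02), NUCB2 (1.00), the phospholipase gene PNPLA8 (1.04), C7orf60 (1.20), ZNF117 (1.48) and BNIP3L (0.98) also rose in DTMYC cells, and their parental responses were below 0 with an unadjusted p under 0.05. For 6 of these 7 genes, all but PLEKHA2, parental DMSO library 3 was the highest library of its group, and the differences without it were 0.81, 0.82, 0.83, 0.91, 1.11 and 0.73 in the order given. Their parental responses were also nearer 0 without it, with ZNF117 going from -0.56 to -0.23, NUCB2 from -0.30 to -0.15, C7orf60 from -0.52 to -0.27, PNPLA8 from -0.46 to -0.28, SNX10 from -0.49 to -0.31 and BNIP3L from -0.41 to -0.20. ZNF117 and NUCB2 were then no longer of the opposite class. ZNF117 overlaps ERV3-1 and belongs to a repeated gene family. Other named genes share bases with a neighbouring coding gene, such as NR1D1 with THRA, TJP3 with APBA3, TM7SF2 with VPS51 and ACAT2 with TCP1, and the sources used here do not say whether counting used strand.

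STC2 and EPCAM were called at levels where 1 line had almost no reads. STC2, a secreted glycoprotein of the stress response, read 6.13, 6.84 and 6.02 CPM in DTMYC DMSO libraries but 0.133, 0.0465 and 0.078 CPM in parental DMSO libraries, so its parental fold rests on a handful of reads. EPCAM read 0.182, 0.137 and 0.115 CPM in DTMYC DMSO libraries and 1.79, 1.84 and 2.42 in parental DMSO libraries. EPCAM and KRT8 (0.54, uncertain because of near-identical copies) were the 2 members called of 8 kidney epithelial markers. In all, 10 of the 159 genes were under 1 CPM in the DMSO libraries of 1 line.

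Sterol genes had lower responses in parental cells than in DTMYC cells, and 2 of them were called. Of 26 cholesterol synthesis and SREBP2 target genes, all 26 had a parental response below 0, against 59.1% of all genes tested. The parental median of the list was -0.40, against -0.05 over all genes, although FDFT1 alone passed the test there. In DTMYC cells the median was -0.09, and 5 members fell and 1 rose, where 4.44% of all genes tested fell and 4.27% rose. The difference had a median of 0.24, and 2 members were called higher and none lower, where 0.597% of all genes tested were higher. Without parental DMSO library 3, the parental median was -0.33 with 18 members that fell, and 9 differences were higher and none lower. Over all genes of that fit 10.9% fell in parental cells and 8.3% of differences were higher. TM7SF2, a sterol C14 reductase, read 11.6, 10.8 and 11.8 CPM in DMSO and 19.6, 17.7 and 17.2 CPM in dTAG47 in DTMYC cells and 47.1, 41.1 and 37.6 CPM in DMSO and 33.1, 29.5 and 33.1 CPM in dTAG47 in parental cells, and its difference was 1.07 ± 0.14 (SE, adjusted p = 0.00828) in edgeR. ACAT2, which makes acetoacetyl-CoA, read 146, 127 and 110 CPM in DMSO and 91.8, 88.98 and 81.8 CPM in dTAG47 in parental cells and 90.7, 89.5 and 93.9 CPM in DMSO and 100.5, 104 and 104 CPM in dTAG47 in DTMYC cells. The parental groups did not overlap (response -0.54, adjusted p = 0.0509 in edgeR), and the DTMYC groups lay apart the other way. Its difference was 0.71 ± 0.13 (SE, adjusted p = 0.0351) in edgeR, while its DTMYC response of 0.17 did not pass the test. ACSS2, which makes acetyl-CoA from acetate, had -0.49 in parental cells, 0.34 in DTMYC cells and a difference of 0.83 ± 0.16 (SE, adjusted p = 0.0351) in edgeR. It belongs to the fatty acid synthesis list and was the 1 member called of 18. That list had a median difference of -0.01 and a median parental response of 0.004. Without parental DMSO library 3, 2 of its differences were higher and 3 lower.

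The other genes of the parental class that met the level filter were SHISA3 and ATP11A, and both rose in parental cells (adjusted p = 0.009 and 0.049 in edgeR). SHISA3, an inhibitor of WNT and FGF receptors, read 68.6, 81.8 and 78.5 CPM in DMSO and 120.5, 115 and 126 CPM in dTAG47 in parental cells and 403, 448 and 411 CPM in DMSO and 456, 448 and 463 CPM in dTAG47 in DTMYC cells. Its difference was -0.55 ± 0.11 (SE, adjusted p = 0.0396) in edgeR. ATP11A, a phospholipid flippase, had 0.40 in parental cells, -0.06 in DTMYC cells and a difference of -0.46 ± 0.10 (SE, adjusted p = 0.0424) in edgeR. SOX10 and TSSK4, with lower levels, completed the class and are named here because it has 5 members. SMARCA4, the ATPase of SWI/SNF, read 625, 762 and 617 CPM in DMSO and 839.9, 792 and 897 CPM in dTAG47 in parental cells and 491, 484 and 509 CPM in DMSO and 496, 479 and 447 CPM in dTAG47 in DTMYC cells. Its difference was -0.40 ± 0.12 (SE, adjusted p = 0.115) in edgeR and -0.37 without parental DMSO library 3, and the parental groups did not overlap while the DTMYC groups did. None of 23 SWI/SNF subunit genes was called in the difference, and without parental DMSO library 3 the parental response of 12 rose and the difference of 9 was lower. Over all genes of that fit 9.17% rose in parental cells and 9.58% of differences were lower.

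In the remaining class both responses had the same sign and different sizes. TMEM173, which encodes the innate immune sensor adaptor STING, read 1.18, 1.02 and 0.918 CPM in DMSO and 3.14, 3.21 and 3.37 CPM in dTAG47 in DTMYC cells and 6.03, 6.63 and 5.67 CPM in DMSO and 10.1, 10.7 and 9.72 CPM in dTAG47 in parental cells. Neither pair of groups overlapped. The responses were 1.64 and 0.74, both called, with a difference of 0.90 ± 0.17 (SE, adjusted p = 0.0351) in edgeR. It was the 1 member called of 31 interferon response genes, whose median response was 0.36 in DTMYC cells and 0.01 in parental cells. In DTMYC cells 5 of the 31 rose, against 4.27% of all genes tested. They were TMEM173, the RNA sensor gene DDX58 (0.75), STAT2 (0.66), IRF1 (0.36) and IFI35 (0.58). In parental cells TMEM173 alone passed, where 0.104% of all genes tested rose. With parental DMSO library 3 left out, 9 differences of this list were higher and 2 lower, and in parental cells 4 rose and 5 fell. Over all genes of that fit 8.3% of differences were higher and 9.58% lower, and 9.17% rose and 10.9% fell in parental cells. MATK, a kinase that acts on SRC family members, fell by 1.16 on the log2 scale in DTMYC cells and had a response of -0.25 in parental cells, with a difference of -0.92 ± 0.15 (SE, adjusted p = 0.0212) in edgeR.

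**Figure D3:**
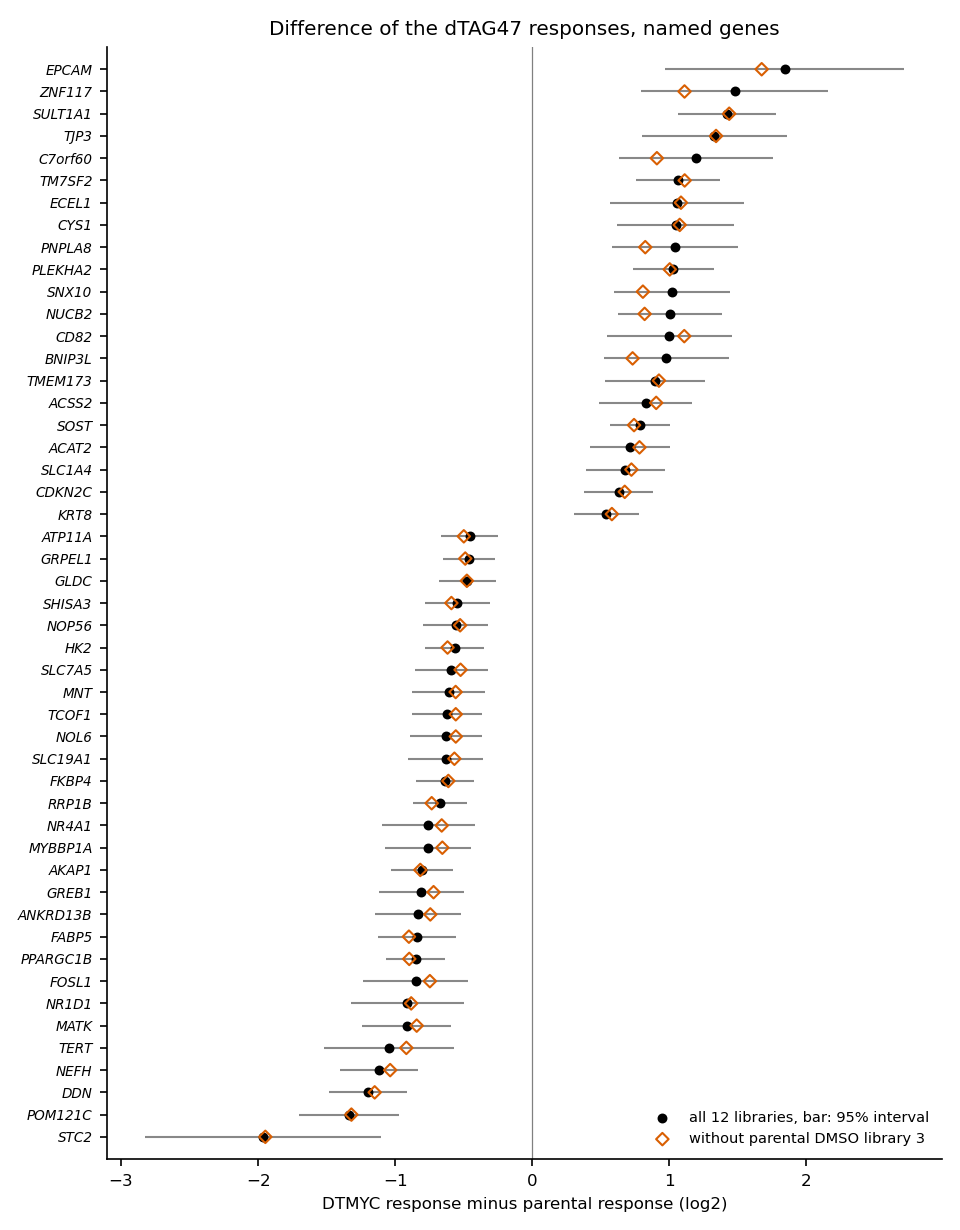
Difference of the dTAG47 responses (log2, horizontal axis) for the 49 named genes that were called, with all 12 libraries (black dots, bars: 95% intervals) and without parental DMSO library 3 (open diamonds). No diamond lies on the other side of 0 from its dot.

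A response was described as shared when the mean of both responses passed the test, each line had an unadjusted p under 0.05 with the same sign, and the difference had an unadjusted p of 0.05 or more. The mean response passed for 907 genes (6.77%). By this rule 333 genes (2.48%) were shared, 182 that rose (1.36%) and 151 that fell (1.13%). A p that misses the threshold does not show that responses are alike, and the 95% interval of the difference lay within ± 0.5 for 239 of them (1.78%). The median size of the mean response was 0.331 on the log2 scale. In the fit that left out parental DMSO library 3, 1265 genes (9.36%) were shared, 470 that rose (3.48%) and 795 that fell (5.88%), and 259 genes were shared in both fits. Leaving out any 1 of the 9 libraries outside the parental DMSO group lowered the mean response calls to between 182 and 494 and the shared genes to between 76 and 195.

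Among the 12 shared genes named by rank, 10 rose. PRKCA, the kinase PKC alpha, read 231, 232 and 237 CPM in DMSO and 322, 323 and 326 CPM in dTAG47 in DTMYC cells and 174, 177 and 195 CPM in DMSO and 225, 248 and 248 CPM in dTAG47 in parental cells. Neither pair of groups overlapped, and the difference had a 95% interval of -0.13 to 0.28. VCL, which encodes the focal adhesion protein vinculin, read 1090, 1102 and 1097 CPM in DMSO and 1425, 1425 and 1361 CPM in dTAG47 in DTMYC cells and 1599, 1516 and 1520 CPM in DMSO and 1762, 1854 and 1846 CPM in dTAG47 in parental cells, with an interval of -0.06 to 0.30. The teneurin gene TENM2 had responses of 0.40 and 0.40 in DTMYC and parental cells, with an interval of -0.21 to 0.22. The ubiquitin ligase gene RNF213 had 0.39 and 0.39, the citron kinase gene CIT 0.27 and 0.43, and the phosphatidate phosphatase gene LPIN2 0.42 and 0.32. The kinase gene AAK1 (0.51 and 0.52), ZFHX2 (0.65 and 0.57), TTLL6 (0.69 and 0.49) and the transglutaminase gene TGM2 (0.85 and 0.47) completed those named, and the interval of TGM2 reached up to 0.75, which leaves room for unequal responses, and without parental DMSO library 3 TGM2 was no longer shared.

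Of the shared genes that fell, FDFT1, which encodes squalene synthase, read 205, 199 and 209.8 CPM in DMSO and 167, 165 and 163 CPM in dTAG47 in DTMYC cells and 367, 349 and 304 CPM in DMSO and 246, 241 and 233 CPM in dTAG47 in parental cells, with an interval of -0.03 to 0.42. Neither pair of groups overlapped. Without parental DMSO library 3, FDFT1 was called as differing (0.24, adjusted p = 0.0415 in edgeR) and no longer shared. With all 12 libraries FDFT1 was 1 of 6 cholesterol genes described as shared, among them SQLE and INSIG1, and 5 of the 6 were also without parental DMSO library 3, so this list holds both shared and line-specific members. KLRG2 fell from 12.8, 12.1 and 14.1 CPM to 7.21, 7.64 and 7.27 CPM in DTMYC cells, while parental libraries held under 0.5 CPM, and the interval of the difference was 0.01 to 1.10. That interval leaves out 0, although the unadjusted p of the difference was 0.133 in edgeR, so KLRG2 is shared by the rule on the p alone. The MYC targets NPM1, HSPD1, PRMT3, TBRG4, TFB2M and NDUFAF4 were also described as shared, that is 6 of the 57, against 2.48% of all genes. With parental DMSO library 3 left out, 3 of these 6 were shared, and HSPD1 (-0.28) and PRMT3 (-0.38) were called as differing. For NPM1, a nucleolar chaperone, the responses were -0.29 in DTMYC cells and -0.37 in parental cells.

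No ribosomal protein gene was called in the difference, nor any gene of the oxidative phosphorylation, DNA replication, mitosis and p53 target lists, and at the 1.19% called over all genes these counts of 0 lie near the background. For 74 cytosolic ribosomal protein genes the median response was -0.17 in DTMYC cells and -0.13 in parental cells, and the median difference was -0.04. In the fit that left out parental DMSO library 3, 33 of the 74 were shared and all 33 fell, and 2 differences were higher and 2 lower. Over all genes of that fit 9.36% were shared, 5.88% with a fall, and 8.3% of differences were higher and 9.58% lower. For 75 mitochondrial ribosomal protein genes the medians were -0.18 and -0.14, the difference was -0.02 with none called, and 28 were shared without that library. For 72 oxidative phosphorylation genes the medians were -0.09 in DTMYC cells and -0.17 in parental cells, and the median difference was 0.05 with none called. Without parental DMSO library 3, 38 of the 72 fell in parental cells and 23 in DTMYC cells. The shares of all genes that fell there were 10.9% in parental cells and 16.6% in DTMYC cells. In cell division lists none was called either, with median differences of -0.01 for 48 DNA replication genes and 0.15 for 55 mitosis genes, the latter -0.05 without parental DMSO library 3. None of 32 p53 target genes was called. No test compared the ribosomal protein and oxidative phosphorylation lists with the ribosome biogenesis genes.

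**Figure D4:**
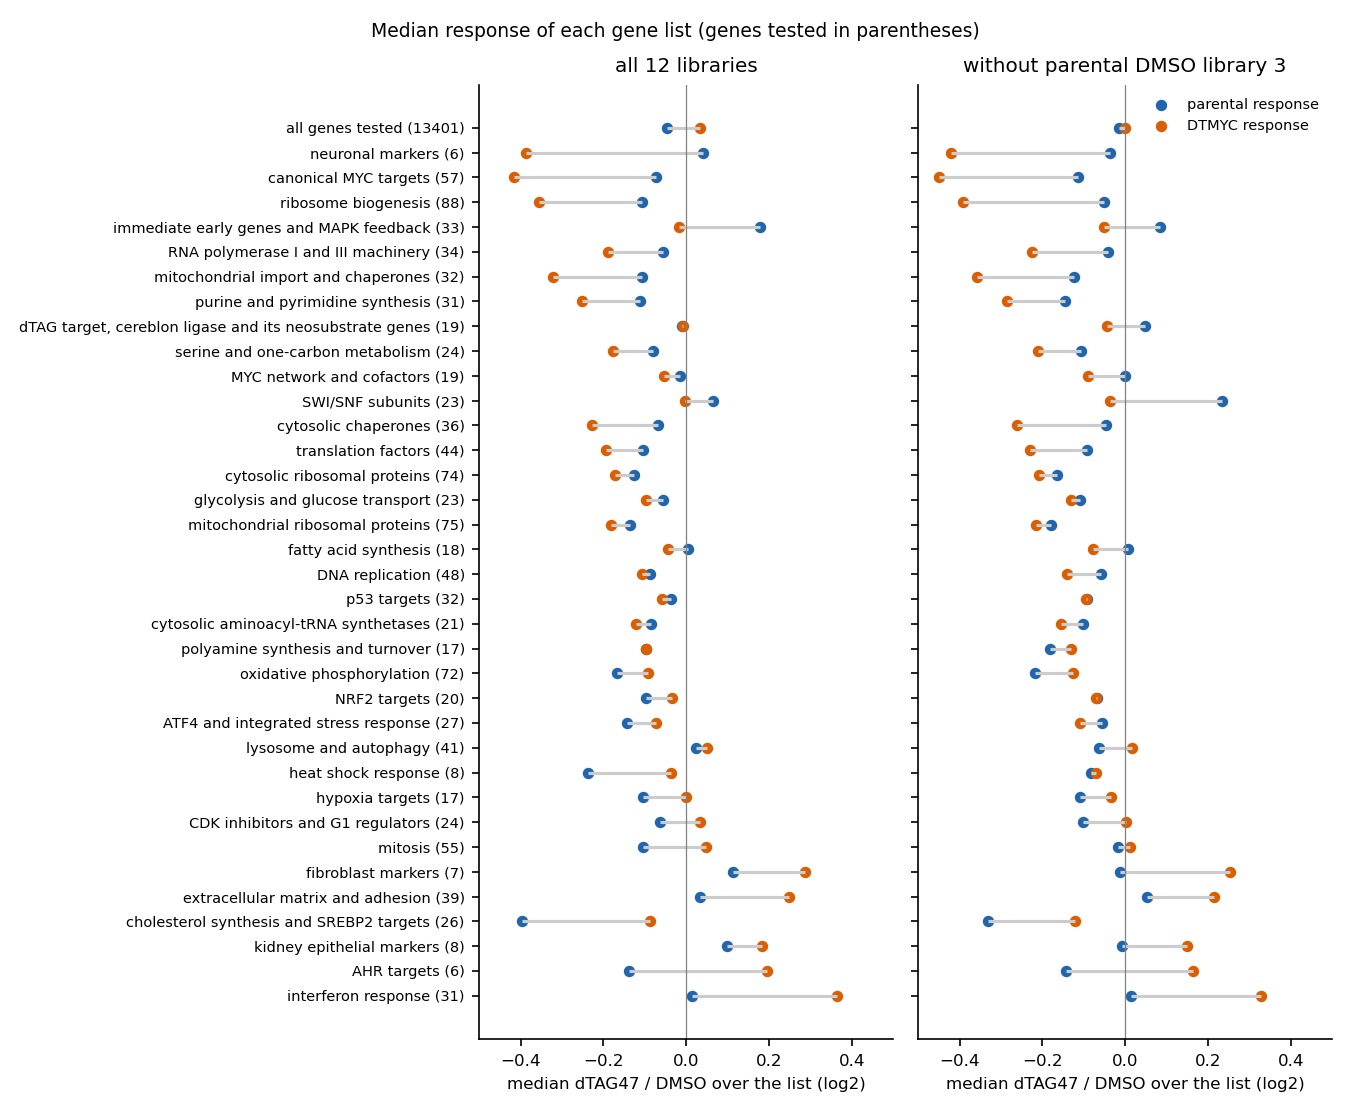
Median dTAG47 response (log2) of each gene list with at least 6 genes tested, in parental cells (blue) and DTMYC cells (orange), with all 12 libraries (left) and without parental DMSO library 3 (right). For canonical MYC targets and ribosome biogenesis the DTMYC dot lies well to the left of the parental dot, for cholesterol and interferon genes it lies to the right, and for ribosomal proteins the dots are close.

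Only 5 genes were called in each line, that is 0.428% of the 1167 DTMYC calls and 29.4% of the 17 parental calls. Over all genes tested, 0.127% were called in parental cells and 8.71% in DTMYC cells. They were FDFT1, CIT, PRKCA, METAP1D and TMEM173, and all 5 had the same sign. Of the 572 genes that rose in DTMYC cells, 354 (61.9%) had a parental response above 0, against 40.8% of all genes tested. For 97 of the 572 that response also had an unadjusted p under 0.05, against 6.95% of all genes tested. The parental median of the 572 was 0.05. Of the 595 that fell, 406 (68.2%) had a parental response below 0, against 59.1% of all genes tested. For 82 of the 595 that response also had an unadjusted p under 0.05, against 8.53% of all genes tested. The parental median of the 595 was -0.07. The difference itself was called for 69 of the 572 and 65 of the 595, against 1.19% of all genes tested. The DTMYC response is a part of the difference, so nothing is read from these counts. Across all 13401 genes the responses of the lines, which share no library, had r = 0.043, given as a description. With parental DMSO library 3 left out, r was 0.108 and 1020 genes were called in each line, 794 with the same sign. That was 25.8% of the 3951 DTMYC calls, against 20.1% of all genes called in parental cells. It was 37.5% of the 2718 parental calls, against 29.2% of all genes called in DTMYC cells.

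MYC occupancy and nascent transcription, which the choice of genes did not use, were read for the same genes in DTMYC cells. A MYC region with its midpoint within 1000 bases of a start site was found for 20 of 78 genes with the lower difference (25.6%) and 2 of 80 with the higher (2.5%), against 7.89% of all genes tested with a start site. With regions of a score of at least 50 these shares were 14.1%, 1.25% and 4.68%, and with midpoints within 250 bases 16.7%, 1.25% and 5.33%. All 20 regions of the lower genes contain CACGTG, which reads the same on both strands, against 60.6% of the regions at start sites of all genes tested, with median lengths of 902 and 780 bases. The 2 regions of the higher genes, at ATP6V1D and ANKMY2, contain none. Besides the genes printed above, the 20 include NSUN2, USP36, YBX3, TFAP4, ZNFX1, TBC1D14, IMP4, TSR1, PA2G4, THAP4 and VDAC1, which are named for their regions and were chosen after their values were seen. Shared genes that fell had a region in 51 of 150 cases (34.0%), of whose 50 distinct regions 54.0% contain CACGTG, and shared genes that rose in 4 of 179 (2.23%).

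PRO-seq counts engaged RNA polymerase in gene bodies, here after 4 h in DTMYC cells, from 2 libraries per group. Genes with the lower difference had a median gene body change of -0.43, with 68 of 73 below 0. Genes with the higher difference had a median of 0.32, with 7 of 74 below 0, and all genes tested had a median of 0.02, with 46.7% below 0. At 4 h the change was -0.50 for HK2, -0.54 for NOP56, -1.08 for TERT, -1.04 for NEFH and 1.84 for SULT1A1. It was near 0 for others that were called in the difference, 0.01 for NR4A1, -0.02 for POM121C, -0.02 for KRT8 and 0.08 for TM7SF2. In edgeR no gene passed an adjusted p of 0.05 in PRO-seq, and 1297 of 13363 genes (9.71%) had an unadjusted p under 0.05, so these values describe groups of genes rather than single ones. SHISA3 had 0.17 and ACAT2 0.26, both of the parental class. Shared genes that fell had a median of -0.30, with 129 of 137 below 0, and shared genes that rose had 0.20, with 8 of 161 below 0. Thus the medians in nascent RNA of DTMYC cells had the sign of the 24 h change for both the line-specific and the shared genes. All PRO-seq and ChIP-seq samples of the series are of DTMYC cells, and these readouts therefore describe 1 line.

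**Figure D5:**
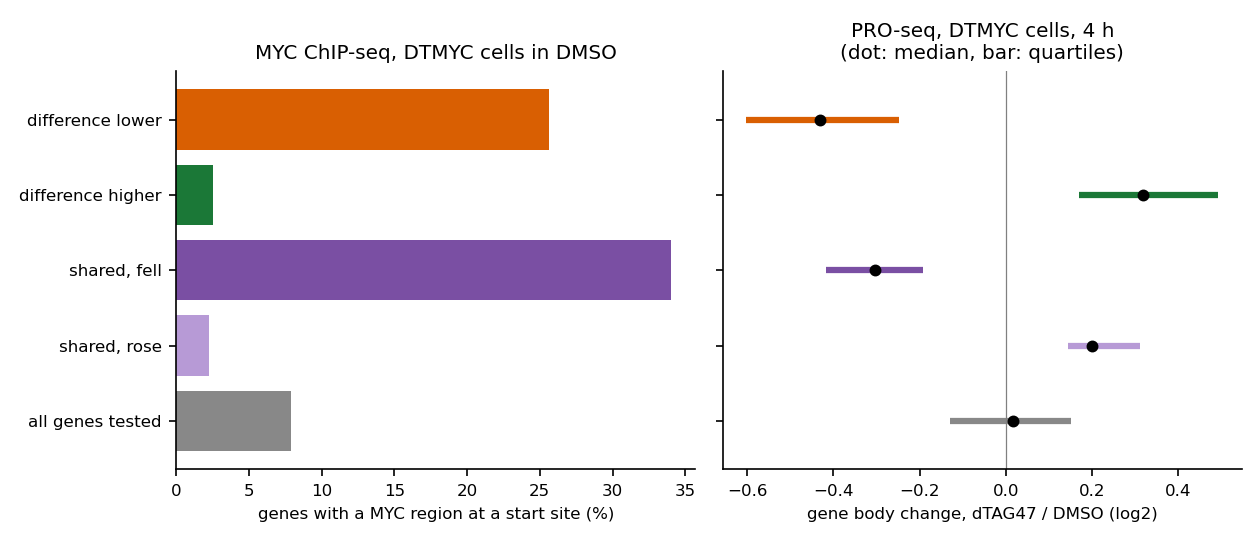
Left, share of genes with a MYC region at a start site (percent, bars start at 0); right, median (dot) and quartiles (bar) of the PRO-seq gene body change after 4 h of dTAG47 in DTMYC cells (log2). Genes with the lower difference and shared genes that fell have the larger shares of regions and medians below 0, and the other groups have small shares or medians above 0.

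Markers of other cell types were read in the same libraries. The summed level of 9 blood cell markers was 62.2 to 88.6 CPM in parental DMSO, 74.0 to 80.8 in parental dTAG47, 25.6 to 28.3 in DTMYC DMSO and 24.9 to 28.4 in DTMYC dTAG47 libraries. Nearly all of it was CD74, which helps present antigens, while PTPRC, CD3E and LYZ were under 0.1 CPM in every library. The summed level of 9 fibroblast markers was 2340 to 4010 CPM in parental DMSO, 3210 to 3370 in parental dTAG47, 4200 to 4500 in DTMYC DMSO and 5020 to 5240 in DTMYC dTAG47 libraries, with FAP and LUM under 0.1 CPM throughout. The sum of 9 neuronal markers was 175 to 223, 209 to 217, 120 to 123 and 59.6 to 67.4 CPM in the same order, of which NEFH was the main part, and ELAVL4 and STMN2 were under 0.1 CPM. Their part in the differences above was not tested. Of the genes of the degradation machinery, CRBN, the cereblon gene, read 24.1, 24.1 and 30.1 CPM in DMSO and 19.7, 18.4 and 21.5 CPM in dTAG47 in parental cells and 32.9, 35.1 and 32.5 CPM in DMSO and 28.9, 32.4 and 32.6 CPM in dTAG47 in DTMYC cells. Its difference was 0.30 ± 0.15 (SE, adjusted p = 0.294) in edgeR, and none of 19 genes of that list was called.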

How the data were processed

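RNA-seq counts, PRO-seq counts and MYC ChIP-seq peaks were used. The RNA-seq file that the authors deposited holds whole-number read counts of protein-coding genes, and their PRO-seq file holds such counts for gene bodies. In the deposited ChIP-seq peak lists the score of a peak is the -log10 q value multiplied by 10, as MACS2 writes it, with lists made per sample and no score under 13. The labels name MYC as the antibody of these samples, whereas the deposited lists are named for HA, and which of these was used is not settled here. Bowtie2, cutadapt, DESeq2, DiffBind, featureCounts, MACS2 and STAR, with build hg19, appear in the submitters' processing notes, whose versions are not given in the sources read. Groups came from the labels.

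The test was edgeR 4.0.16 under R 4.3.3 (filterByExpr by group, TMM, quasi-likelihood F-test, two-sided, Benjamini-Hochberg over all genes tested, threshold 0.05). A single model held all 12 libraries with 1 coefficient per group and no replicate block, which left 13401 of 18132 entries. CPM values use effective library sizes, and log2 changes are those of the fit. PRO-seq was fitted separately on 2 libraries per group (18209879 to 23256313 counts). MYC regions were the 1068 regions shared by both DMSO lists, which hold 4010 and 1519 peaks, and sequences were read from GRCh37, the build of hg19. Start sites came from the GENCODE annotation of that build.

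The 37 gene lists, the members and the rules were chosen with earlier results of these data known, and lists are described by counts and medians with no test. Named genes are the 12 lowest and 12 highest called differences with a mean of at least 5 CPM and no overlap in the line that changed more, up to 12 shared genes, up to 3 called members per list, up to 5 each of the opposite and parental classes, and a fixed set with MYC. In simulated counts with 100 genes planted at 1.5-fold and 100 at 2-fold differences among 13313 genes, 15% and 85% were called for the difference, with 14 false calls and no wrong sign. These counts were drawn independently for each gene and library, with no GC trend and no library set apart. The rates therefore need not hold for the measured libraries. The planted genes all averaged more than 5 CPM, so the shares called do not cover genes at lower levels. Alternatives were limma 3.58.1 (voom), DESeq2 1.42.0, other scalings and filters, blocks, offsets and each library left out. ATAC-seq and dTAG47 ChIP-seq lists were not used here.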

Additional observations from a re-analysis of the deposited data

Results flagged for a closer look

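The dTAG47 response differed between DTMYC and parental cells for 159 genes by the edgeR test of the difference itself, and the named ones are given here with the DTMYC minus parental response (log2, all 12 libraries). The lower response was in DTMYC cells for POM121C (-1.33), DDN (-1.20), NEFH (-1.12), TERT (-1.04), MATK (-0.92), NR1D1 (-0.91), FOSL1 (-0.85), PPARGC1B (-0.85), FABP5 (-0.84), ANKRD13B (-0.83), GREB1 (-0.81), AKAP1 (-0.80), HK2 (-0.57), MYBBP1A (-0.76), TCOF1 (-0.62), RRP1B (-0.67), NOL6 (-0.63), NOP56 (-0.56), GRPEL1 (-0.46), GLDC (-0.47), SLC19A1 (-0.63), FKBP4 (-0.64), MNT (-0.61), NR4A1 (-0.76), STC2 (-1.96), SLC7A5 (-0.59), SHISA3 (-0.55) and ATP11A (-0.46). The higher response was in DTMYC cells for ZNF117 (1.48), SULT1A1 (1.42), TJP3 (1.33), C7orf60 (1.20), TM7SF2 (1.07), ECEL1 (1.06), CYS1 (1.05), PNPLA8 (1.04), PLEKHA2 (1.03), SNX10 (1.02), NUCB2 (1.00), CD82 (1.00), SLC1A4 (0.68), CDKN2C (0.63), TMEM173 (0.90), ACAT2 (0.71), ACSS2 (0.83), BNIP3L (0.98), KRT8 (0.54), EPCAM (1.84) and SOST (0.79). Because the groups hold 3 libraries each, single libraries far from their group could not be tested by a gap rule.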

How the results depend on the processing

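The directions of the named differences were the same under every setting run here. All 159 differences called with 12 libraries had the same sign under each alternative fit, apart from 4 that a filter of 1 CPM in 6 libraries left untested. The 159 were chosen from the same libraries, so the kept signs are not read as support. The counts changed much more, and those that differed by more than 1.5 times follow, in genes, for the difference, the responses, the shared genes and the classes. With relative log expression scaling the values were 63 (difference), 7 (parental response), 33 (DTMYC alone), 29 (opposite), 1 (same direction) and 0 (parental alone). With upper quartile scaling the values were 58 (difference), 37 (parental response), 28 (DTMYC alone), 30 (opposite), 0 (same direction) and 0 (parental alone). With DESeq2 the values were 544 (difference), 315 (parental response), 319 (DTMYC alone), 128 (opposite), 6 (same direction) and 78 (parental alone). With limma voom and library weights the values were 2936 (difference), 6217 (DTMYC response), 1790 (parental response), 4505 (mean response), 1287 (shared), 1158 (shared with a narrow interval), 1539 (DTMYC alone), 655 (opposite), 165 (same direction) and 559 (parental alone). With no filter on low counts the values were 102 (difference), 62 (DTMYC alone), 36 (opposite) and 2 (parental alone). With a filter of 1 CPM in 6 libraries the value was 73 (parental response). With a replicate block over all 12 libraries the values were 79 (difference), 5 (parental response), 49 (DTMYC alone), 28 (opposite), 1 (same direction) and 1 (parental alone). With a replicate block within each line the values were 263 (difference), 27 (parental response), 108 (opposite), 4 (same direction) and 16 (parental alone). With GC content and length offsets the values were 2050 (difference), 3394 (DTMYC response), 742 (parental response), 2845 (mean response), 723 (shared), 631 (shared with a narrow interval), 1160 (DTMYC alone), 476 (opposite), 94 (same direction) and 272 (parental alone). With these offsets and the replicate block the values were 1958 (difference), 3348 (DTMYC response), 675 (parental response), 2806 (mean response), 743 (shared), 654 (shared with a narrow interval), 1112 (DTMYC alone), 466 (opposite), 84 (same direction) and 264 (parental alone). With these offsets and without parental DMSO library 3, an alternative chosen after seeing the data, the values were 3468 (difference), 4848 (DTMYC response), 2744 (parental response), 4486 (mean response), 1187 (shared), 1099 (shared with a narrow interval), 1575 (DTMYC alone), 829 (opposite), 203 (same direction) and 803 (parental alone). At an adjusted p of 0.01 the values were 12 (difference), 310 (DTMYC response), 3 (parental response), 118 (mean response), 43 (shared), 32 (shared with a narrow interval), 6 (DTMYC alone), 6 (opposite), 0 (same direction) and 0 (parental alone). At an adjusted p of 0.1 the values were 683 (difference), 1904 (DTMYC response), 140 (parental response), 1649 (mean response), 427 (DTMYC alone), 140 (opposite), 10 (same direction) and 104 (parental alone). Fitted on their own 6 libraries, 4593 genes passed in DTMYC cells (2084 rose and 2509 fell) and 0 in parental cells, where edgeR with all 12 libraries called 17. An interval within ± 0.3 held 63 shared genes. With peak scores of at least 50, 14.1% of the lower genes had a MYC region. Leaving out each of the 12 libraries in turn gave 5 to 2417 (difference), 329 to 3951 (DTMYC response), 0 to 2718 (parental response), 182 to 4083 (mean response), 76 to 1265 (shared), 43 to 1151 (shared with a narrow interval), 3 to 997 (DTMYC alone), 2 to 572 (opposite), 0 to 111 (same direction) and 0 to 693 (parental alone). With each PRO-seq library left out, the median gene body change of the lower genes was -0.46 to -0.40. Likewise the median gene body change of the higher genes was 0.25 to 0.41. The replicate numbers were not taken as pairs, since the labels do not say that they are. Residuals of same-numbered DMSO and dTAG47 libraries had correlations of 0.324, 0.0483 and 0.367 within parental cells. Within DTMYC cells these were 0.0846, -0.011 and -0.0476, and between the lines they ran from -0.2 to 0.214. Whether same-numbered parental libraries share a batch was not tested. Of the 263 differences called with a block within each line, 132 were among the 159. The replicate block moved the count of called differences from 159 to 79, of which 77 were among the 159. Of the 55 named genes tested for a difference, some that had passed fell under the threshold. These were 20 with the block, 26 with relative log expression and 27 with upper quartile scaling. They were 34 to 44 without any 1 of the 9 libraries outside the parental DMSO group. The mean response of all 12 named shared genes passed under each setting. These 12 were chosen for a small p of that same response in the same libraries, so nothing is read from it. By the whole shared rule, FDFT1 and TGM2 were lost without parental DMSO library 3 and with limma voom, LPIN2 and TGM2 with the offsets, TGM2 with the offsets and block and without DTMYC dTAG47 library 3 or parental dTAG47 library 1, and 6 of the 12 with the offsets and without that library. The causes were not tested. Precision was limited for genes under 1 CPM in one line.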
